A study of Mus musculus with 14 samples.

Results

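Replication-dependent histone genes were read on 14 one-colour expression arrays of mouse mast cells. They were taken as every non-control probe whose gene name on the array started with Hist1h, Hist2h, Hist3h or Hist4h, the names of the histone clusters. This gave 46 probes for 36 genes of the 28090 genes on the array, and each gene was represented by its probe with the highest mean. The genes comprised 6 of linker histone H1, 11 of H2A, 10 of H2B, 3 of H3 and 6 of H4. By the coordinates that the array files give on the mm9 mouse genome, 26 lay on chromosome 13, 6 on chromosome 3, 3 on chromosome 11 and 1 on chromosome 6.

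The mast cells (BMMC) were grown from mouse bone marrow in medium with IL-3 for 4 to 6 weeks. All samples carried the same strain label. The cells were wild-type for or lacked Pla2g3, which encodes a secreted phospholipase A2. Cells were taken as immature BMMC or after 4 days on a layer of Swiss 3T3, a mouse fibroblast line, with stem cell factor at 100 ng/ml. Coculture of this kind matures BMMC towards connective tissue mast cells. There were 3 arrays of wild-type BMMC, 4 of knockout BMMC, 4 of wild-type cocultured cells and 3 of knockout cocultured cells. Nothing in the labels ties replicates to different mice, and the tests therefore measure the spread between these samples, which may be technical. RNA was amplified with the Agilent Quick Amp kit, which primes on poly(A) tails.

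Cluster histone genes supply the bulk of the chromatin proteins of new DNA. H2A, H2B, H3 and H4 form the nucleosome core, and H1 binds the linker DNA between cores. Their mRNAs are made mostly in S phase and end in a stem-loop, bound by SLBP, in place of a poly(A) tail. In cells that have stopped dividing, several cluster genes are known to give polyadenylated transcripts instead.

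All levels below are log2 signals relative to each array's 75th percentile, which is 0. A level belongs to its own probe and is not comparable between probes. A gene was tested if its probe was well above background on at least 3 arrays, and a change was called at a Benjamini-Hochberg adjusted p under 0.05 in a limma fit over 16058 genes. Of the 36 histone genes, 32 were tested: 5 of H1, 9 of H2A, 9 of H2B, 3 of H3 and 6 of H4. The testis linker histone Hist1h1t, Hist1h2ac and Hist1h2be were well above background on 0 arrays, and Hist1h2al on 2, so these 4 were not tested. The 75th percentile signal was 69.4 to 176 per array, and 42.6% to 55.9% of probes were well above background.

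The Pla2g3 probe went against the genotype labels. It averaged -3.80 ± 0.87 (SD, n = 3) in BMMC labelled wild-type and -1.57 ± 0.28 (n = 4) in BMMC labelled knockout, and -3.48 ± 0.96 (n = 4) against -2.32 ± 0.78 (n = 3) after coculture. The BMMC arrays did not overlap, and the difference of 2.22 (SE 0.54) had an adjusted p of 1.0. Whether this probe lies in the deleted part of the gene is not given in the sources used here. Wild-type and knockout therefore mean the arrays labelled so throughout. Arrays also lay on 4 slides, and the 2 cocultured arrays of slide 4, wild-type replicate 3 and knockout replicate 3, each stood with the other genotype label. On the second principal component over all genes, which held 18.1% of the variance, wild-type replicate 3 scored -90.9 and the other wild-type cocultured arrays 23.7 to 66.6. Knockout replicate 3 scored 26.4 and the other knockout cocultured arrays -79.3 and -76.9. Labels were kept as given, whether they fit this pair was not tested, and every comparison of genotypes after coculture rests on them. Results are given with and without this pair of arrays.

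Histone genes of a class are close copies, so the probes themselves limit which gene a signal belongs to. The 4 H2B probes that follow are shown because their genes moved together; capitals mark, for Hist1h2bm and Hist1h2bk, the longest run that each shares with the other, for Hist3h2bb the run shared with Hist1h2bm, and for Hist1h2ba the run shared with Hist1h2bk.
Hist1h2bm: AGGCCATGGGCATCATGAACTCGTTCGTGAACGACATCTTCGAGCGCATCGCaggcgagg
Hist1h2bk: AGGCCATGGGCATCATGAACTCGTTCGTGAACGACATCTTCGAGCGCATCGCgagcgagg
Hist3h2bb: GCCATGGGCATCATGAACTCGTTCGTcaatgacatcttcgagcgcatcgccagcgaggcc
Hist1h2ba: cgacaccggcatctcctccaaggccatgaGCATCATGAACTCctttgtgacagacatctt
Hist1h2bm and Hist1h2bk shared a run of 52 bases and matched at 58 of 60, and Hist3h2bb shared a run of 26 with Hist1h2bm. Signals of these genes, which lie on chromosomes 13 and 11, could not be separated with confidence. Of the 32 genes tested, 12 had a probe that shared at least 20 bases in a row, or 85% of 40 or more aligned bases, with a probe of another histone gene: 4 of H2A, 4 of H2B and 4 of H4. The same held for the H2A pair Hist1h2aa and Hist1h2af and the H4 pair Hist1h4d and Hist1h4f, whose capitals mark the run shared within each pair.
Hist1h2aa: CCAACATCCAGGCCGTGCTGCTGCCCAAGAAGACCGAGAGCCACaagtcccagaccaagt
Hist1h2af: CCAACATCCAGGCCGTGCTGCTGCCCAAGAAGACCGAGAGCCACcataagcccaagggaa
Hist1h4d: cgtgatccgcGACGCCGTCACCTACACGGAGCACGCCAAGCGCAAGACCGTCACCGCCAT
Hist1h4f: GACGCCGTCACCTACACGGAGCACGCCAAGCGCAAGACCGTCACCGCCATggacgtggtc
The runs were 44 bases for the H2A pair and 50 for the H4 pair. The probes of Hist1h1c, Hist1h2bc, Hist1h2bp, Hist1h4i and the 3 H3 genes shared no such stretch with a probe of another histone gene. Those of Hist1h3d and Hist2h3c1 shared a run of 17 bases. Probes were compared with each other and not with histone transcripts, so whether they match further histone genes was not tested.

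After coculture with stem cell factor a subset of the histone genes, mostly H2B, was higher, and none that passed the test was lower. In wild-type cells 8 of 32 rose: the linker histone gene Hist1h1c, the H2B genes Hist1h2ba, Hist1h2bc, Hist1h2bk, Hist1h2bm, Hist1h2bp and Hist3h2bb, and the H4 gene Hist1h4i. Of all genes tested, 6.02% rose and 6.86% fell in this comparison. In knockout cells 11 of 32 rose, the same 8 and Hist1h2ae of H2A with Hist1h3d and Hist2h3c1 of H3, where 7.78% of all genes rose and 6.51% fell. Hist1h2bp, Hist1h3a and Hist2h2bb were above background on fewer than 3 BMMC arrays and were tested because of the cocultured arrays, so that Hist1h2bp could be called in one direction alone. Among the 29 genes without them 7 rose in wild-type and 10 in knockout cells, where 3.87% and 6.68% of all genes chosen in that way rose. The median difference over the 32 genes was 0.32 in wild-type and 0.55 in knockout cells, against -0.06 and 0.07 over all genes. H2B had the highest class median, at 2.25 in wild-type and 1.77 in knockout cells over 9 genes. That wild-type median was the value of Hist1h2bp, and Hist2h2bb was also among the 9. Of the 7 H2B genes without them, 5 rose in each genotype. The probes of Hist1h2ba, Hist1h2bk, Hist1h2bm and Hist3h2bb have similar sequence, so the 9 are not separate measurements. The H2A medians were -0.13 and 0.36, the H1 medians -0.01 and -0.03, the H3 medians 0.56 and 1.001 and the H4 medians 0.29 and 0.49.

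**Figure D1:**
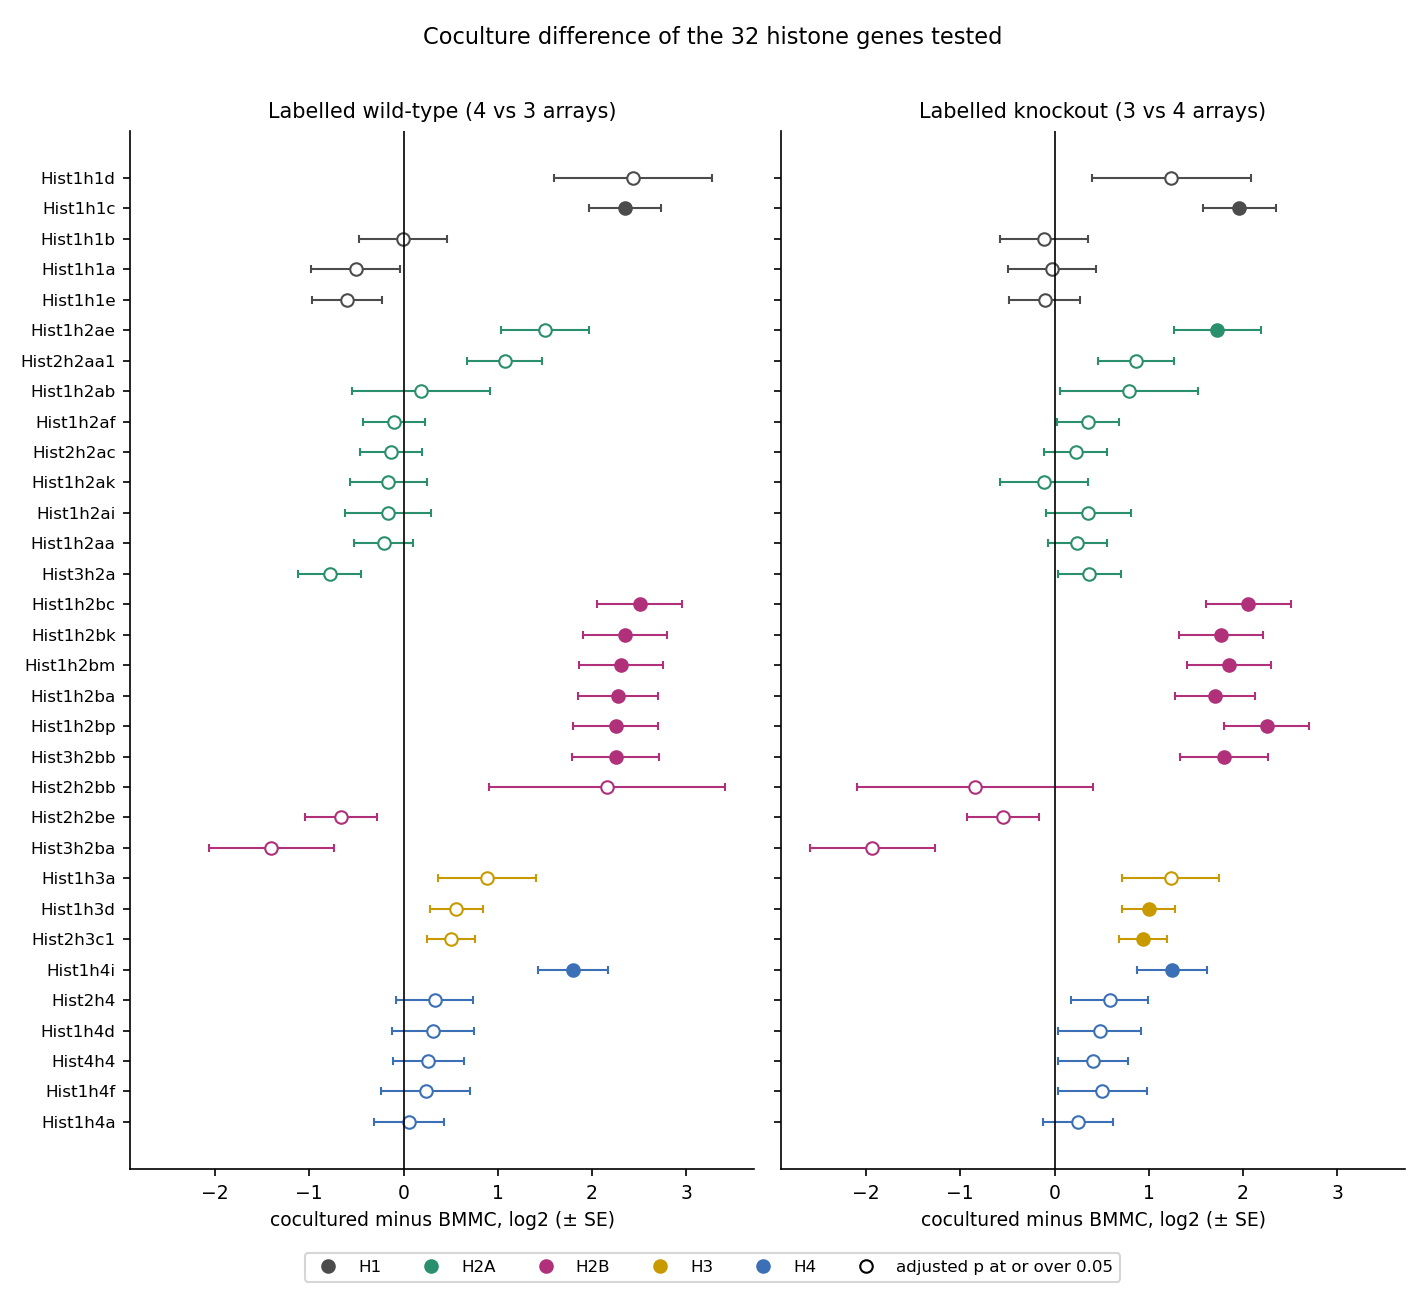
Coculture difference of the 32 histone genes tested, as cocultured minus BMMC on the log2 scale with its standard error, in wild-type (left) and knockout cells (right), ordered within each class. Filled points passed the test: 8 in wild-type and 11 in knockout cells, all higher, with 6 of 9 H2B genes among them in each. Hist1h2bp is among these 6 and was tested through the cocultured arrays alone.

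Groups whose arrays did not overlap were also counted. In 12 of 32 histone genes every cocultured wild-type array was above every wild-type BMMC array, against 10.5% of all genes. In knockout cells this was so for 11 of 32, against 16.1% of all genes. Hist1h2bp is in both counts and Hist1h3a in the wild-type count. Both were tested because of the cocultured arrays, so they add nothing to these counts. The shares over all genes include genes tested in that way too. No histone gene had cocultured arrays that all lay below those of BMMC in either genotype, against 14.9% of all genes in wild-type and 12% in knockout cells.

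Hist1h1c encodes the H1.2 linker histone, and its probe lies at chr13:23832018-23832077 (mm9), with gene features there not analysed here. It read 4.44, 3.74 and 3.11 on the wild-type BMMC arrays and 5.31, 6.23, 6.22 and 6.67 on the wild-type cocultured arrays. On the knockout arrays it read 3.88, 3.72, 3.95 and 4.03 in BMMC and 6.22, 6.18 and 5.17 after coculture. Every cocultured array was above every BMMC array, in both genotypes. The difference was 2.35 (SE 0.38, adjusted p = 0.00181) in wild-type and 1.96 (SE 0.38, adjusted p = 0.00581) in knockout cells. Within slides that held both states it was 1.57 and 3.35 in wild-type, and 2.34, 2.46 and 1.14 in knockout cells. The other H1 genes did not pass. Hist1h1a differed by -0.51 and -0.03, Hist1h1b by -0.01 and -0.11, and Hist1h1e by -0.60 and -0.10, in wild-type and knockout cells.

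Hist1h1d, which encodes H1.3, depended on the probe. By its brighter probe the wild-type BMMC arrays read -3.03, -2.39 and -6.06 and the wild-type cocultured arrays -1.63, -1.85, -0.22 and -1.87, without overlap, for a difference of 2.43 (SE 0.84, adjusted p = 0.0769). The knockout difference was 1.24 (SE 0.84, adjusted p = 0.358). By its other probe the differences were -0.41 and -0.39. The probes of Hist1h1e also differed in sign, with -0.60 and -0.10 by the brighter and 0.63 and 0.20 by the other.

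Among the H2B genes, which encode a core histone, Hist1h2bc (probe at chr13:23784219-23784278, mm9) had a probe that no other histone gene's probe resembled. Its level was -0.81, 0.17 and 0.03 in wild-type BMMC and 1.73, 1.98, 3.12 and 2.39 in wild-type cocultured cells. In knockout cells the levels were 0.54, 0.91, 0.65 and -0.04 before and 3.04, 3.18 and 1.498 after coculture. The states did not overlap in either genotype. Hist1h2bc rose by 2.51 (SE 0.45, adjusted p = 0.00311) in wild-type and by 2.05 (SE 0.45, adjusted p = 0.0107) in knockout cells. Within slides the rise was 1.56 and 2.15 in wild-type, and 2.497, 2.27 and 1.53 in knockout cells.

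Hist1h2bm read 0.01, 0.69 and 0.93 in wild-type BMMC and 2.40, 2.63, 3.26 and 3.13 after coculture. Its knockout values were 1.32, 1.51, 1.37 and 0.59 in BMMC and 3.52, 3.80 and 1.82 in cocultured cells. The groups were again apart, and the lowest cocultured knockout value was that of slide 4. The difference was 2.31 (SE 0.45, adjusted p = 0.00475) in wild-type and 1.85 (SE 0.45, adjusted p = 0.0167) in knockout cells. Hist1h2bk, whose probe is nearly the same sequence, differed by 2.35 (adjusted p = 0.00434) and 1.77 (adjusted p = 0.021). A second Hist1h2bk probe gave 2.11 and 1.85. Hist3h2bb, an H2B gene on chromosome 11 with a similar probe, differed by 2.25 (adjusted p = 0.00687) and 1.80 (adjusted p = 0.0229). Its RefSeq symbol, H2bu1-ps, is that of a pseudogene, and it is counted here under its name on the array. These 3 results share probe sequence and are not independent measurements.

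Hist1h2ba encodes an H2B variant best known from testis, and its probe matches that of Hist1h2bk at 35 of 40 aligned bases. Its levels were -1.36, -0.61 and -0.20 in wild-type BMMC against 1.13, 1.45, 1.72 and 1.92 after coculture, and 0.12, 0.20, 0.20 and -0.58 against 2.12, 2.38 and 0.57 in knockout cells. Neither genotype showed overlap. The rise was 2.28 (SE 0.43, adjusted p = 0.00397) and 1.70 (SE 0.43, adjusted p = 0.0203). Hist1h2bp was dim. It was well above background on 0 of 7 BMMC arrays, 3 of 4 wild-type cocultured arrays and 1 of 3 knockout cocultured arrays. Set against the lowest signal measurable on the BMMC arrays, it was at least 3.34-fold higher in wild-type cocultured cells (adjusted p = 0.00597). In knockout cells it was called as well (adjusted p = 0.00663), but with 1 cocultured array above background no fold is given. Since it was tested through the cocultured arrays alone, these calls add nothing to the count of genes that rose.

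The remaining 3 H2B genes tested did not pass. Hist2h2be, an H2B gene outside the large cluster, read 0.07, 0.53 and 0.85 in wild-type BMMC and -0.38, 0.15, -0.95 and 0.47 after coculture, which overlap. Its difference was -0.66 (adjusted p = 0.304) in wild-type and -0.55 (adjusted p = 0.373) in knockout cells. Hist3h2ba, on chromosome 11, differed by -1.40 (adjusted p = 0.202) and -1.93 (adjusted p = 0.0712). Hist2h2bb was above background on 5 of 14 arrays, and its differences of 2.16 and -0.84 did not pass.

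**Figure D2:**
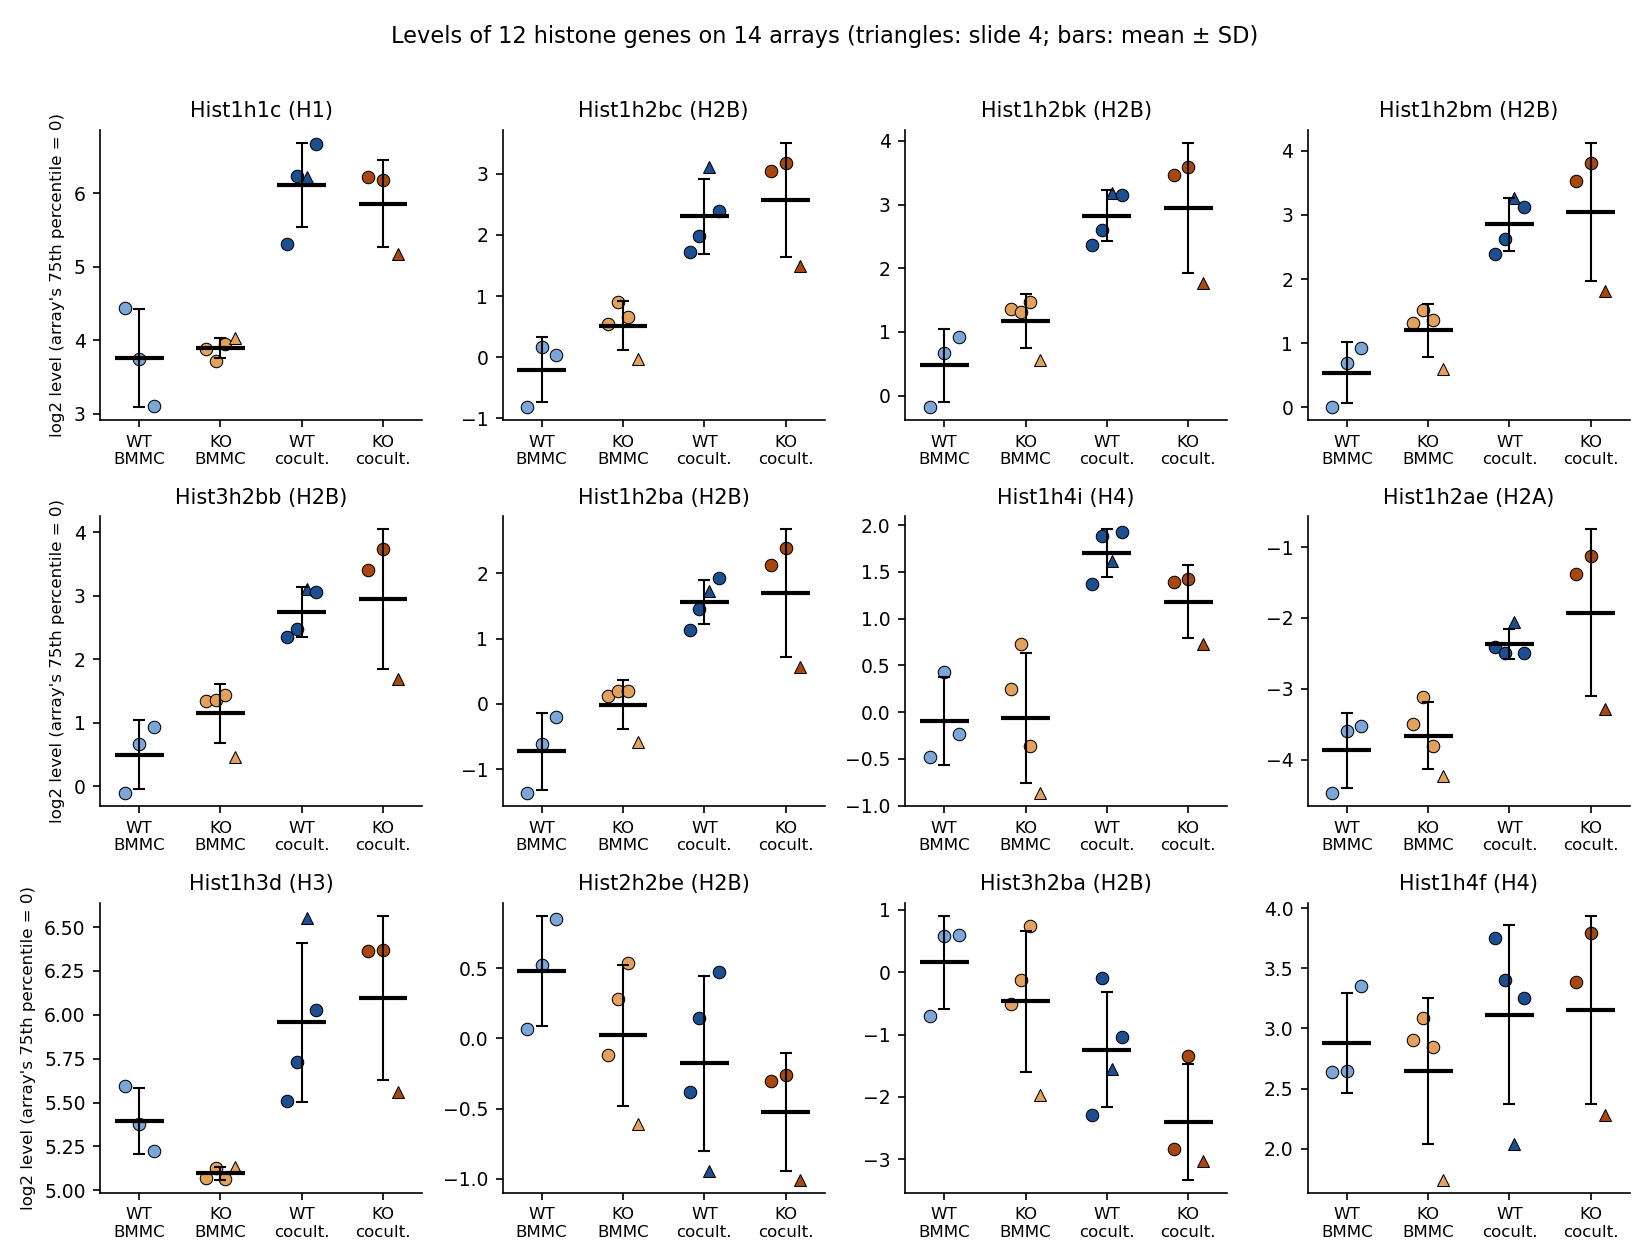
Level of 12 histone genes on each of the 14 arrays, in log2 units with the array's 75th percentile at 0, by group; bars give the mean and SD, and triangles mark the 3 arrays of slide 4. For Hist1h1c, Hist1h2bc, Hist1h2bk, Hist1h2bm, Hist3h2bb, Hist1h2ba and Hist1h4i every cocultured array lies above every BMMC array of its genotype, while Hist2h2be, Hist3h2ba and Hist1h4f overlap.

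H4, the core histone that pairs with H3, had Hist1h4i as its sole gene past the test. The coordinates given for its probe of 60 bases, chr13:22132449-22132455 (mm9), cover only a small part of the probe. Whether the probe lies in the H4 gene was not analysed. Hist1h4i read -0.48, 0.42 and -0.24 in wild-type BMMC and 1.38, 1.89, 1.61 and 1.92 after coculture, and 0.25, 0.73, -0.37 and -0.87 against 1.40, 1.42 and 0.73 in knockout cells. The wild-type arrays were well apart, and the knockout arrays nearly met, at 0.726 for the highest of BMMC and 0.731 for the lowest of the cocultured cells. It rose by 1.80 (SE 0.37, adjusted p = 0.00699) and 1.25 (SE 0.37, adjusted p = 0.0405). The other 5 H4 genes, Hist1h4a, Hist1h4d, Hist1h4f, Hist2h4 and Hist4h4, differed by 0.06 to 0.33 in wild-type and 0.25 to 0.58 in knockout cells, with adjusted p of at least 0.375. Hist1h4f, for example, read 2.64, 2.64 and 3.36 in wild-type BMMC and 3.75, 3.41, 2.04 and 3.26 after coculture, which overlap.

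The H3 genes Hist1h3d and Hist2h3c1 were higher after coculture by smaller amounts. Hist1h3d read 5.60, 5.38 and 5.22 in wild-type BMMC and 5.51, 5.73, 6.55 and 6.03 after coculture, with overlap, for a difference of 0.56 (adjusted p = 0.23). In knockout cells it read 5.07, 5.12, 5.06 and 5.13 in BMMC and 6.36, 6.37 and 5.56 after coculture, without overlap. That difference was 1.001 (SE 0.28, adjusted p = 0.0336). Hist2h3c1 differed by 0.50 (adjusted p = 0.236) and 0.94 (adjusted p = 0.0286). Hist1h3a, whose probe was above background on 9 arrays, differed by 0.89 and 1.23 without passing.

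H2A, the partner of H2B in the nucleosome, gave few calls. In wild-type cells 0 of 9 H2A genes passed, and in knockout cells Hist1h2ae alone did. It read -3.49, -3.11, -3.81 and -4.22 in knockout BMMC and -1.38, -1.13 and -3.28 after coculture. The slide 4 array fell inside the BMMC range and the others above it, for a difference of 1.73 (SE 0.46, adjusted p = 0.0273). In wild-type cells it was higher on all 4 cocultured arrays, by 1.503 with an adjusted p of 0.0501. Hist2h2aa1 differed by 1.07 (adjusted p = 0.105) and 0.86 (adjusted p = 0.176). Hist1h2aa, the testis H2A variant whose gene is the divergent neighbour of Hist1h2ba, differed by -0.21 and 0.24. Hist1h2ak was fitted without knockout cocultured replicate 2, where its spot was marked as an outlier. The sign of the small H2A differences in knockout cells depended on the processing: 8 of 9 were above 0 here and with median scaling, 5 of 9 after quantile normalisation, 3 of 9 after normexp background correction and 2 of 9 in the authors' values.

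The knockout count rested on few arrays. It was 2 without knockout cocultured replicate 1 and 3 without replicate 2 of that group. Without knockout BMMC replicate 4 it was 5, and without replicate 1 of that group 7. Of all genes, 1077, 1540, 1757 and 1334 were called in either direction in these fits, against 2295 with all arrays. In wild-type cells, leaving out any single array left 8 to 10 genes. Hist1h1c, Hist1h2ba, Hist1h2bc, Hist1h2bk, Hist1h2bm and Hist3h2bb stayed past the test in wild-type cells under all 28 alternatives tried.

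**Figure D3:**
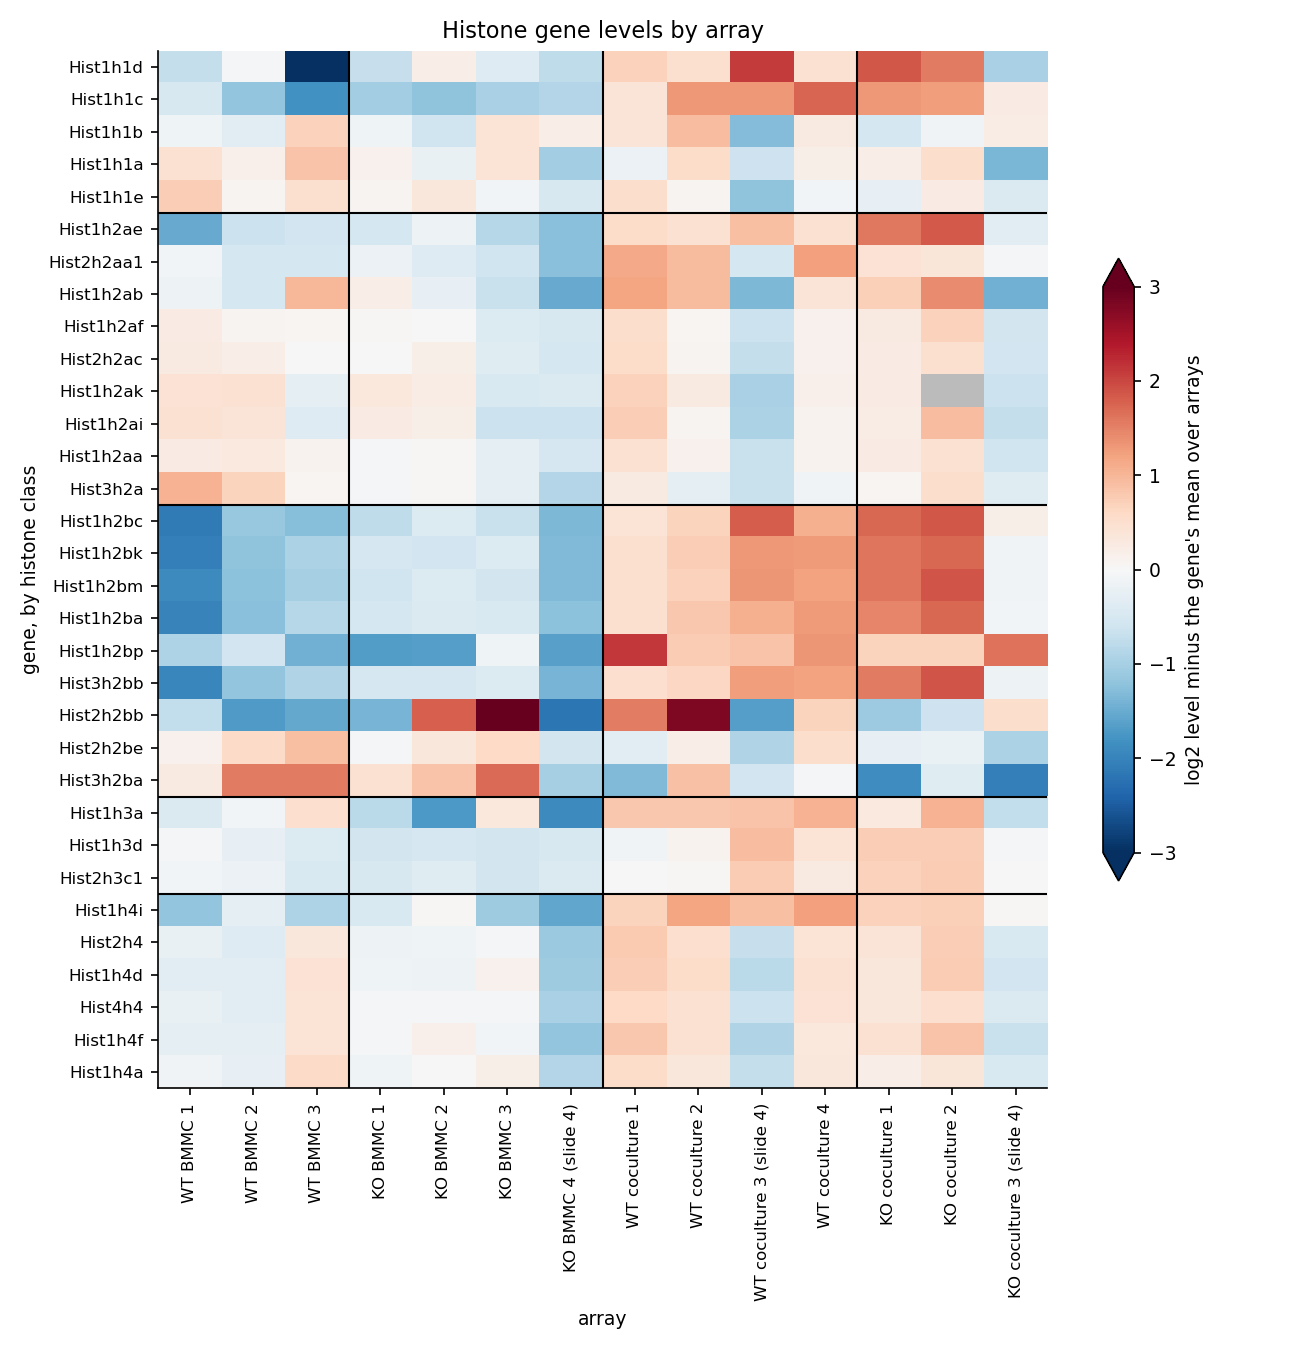
Level of the 32 histone genes (rows, by class) on the 14 arrays (columns, by group), as the log2 level minus the gene's mean over arrays, with colours limited at -3 and 3 and grey for a missing value. The upper H2B rows and Hist1h1c change from blue on the BMMC arrays to red on the cocultured arrays, with knockout cocultured replicate 3 nearest to white, and the H4 rows other than Hist1h4i are lowest on the 3 arrays of slide 4.

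Fibroblast marker genes were higher after coculture. The labels give a purity by flow cytometry above 99% for cocultured cells and above 97% for BMMC. Of 28 fibroblast marker genes tested, 20 rose and 1 fell in wild-type cells, and 13 rose and 1 fell in knockout cells. Well above background on 0 BMMC arrays were 17 of the 28 in wild-type and 16 in knockout cells. Those could hardly be called lower. Of all genes, 6.02% rose and 6.86% fell in wild-type cells, and 7.78% rose and 6.51% fell in knockout cells. These shares also stand beside the other marker counts below. The summed level of the 28, in units of the array's 75th percentile, was 67.0 to 153.9 in wild-type and 105.6 to 191.2 in knockout BMMC. After coculture it was 236.0 to 708.3 in wild-type and 254.7 to 339.6 in knockout cells. Col1a1, Col3a1 and Dcn, defining genes of fibroblasts, were well above background on 0 of the 7 BMMC arrays. Their part in the histone result was not tested, and in bulk RNA fewer cells of a type cannot be told apart from less RNA per cell. Of 12 mast cell markers, Hdc and Ptgds2 rose in both genotypes and Tpsb2 in knockout cells, and Kit, the receptor for stem cell factor, differed by -0.26 and 0.0041. Fcer1a, Ms4a2 and Cpa3, also defining mast cell genes, differed by -0.35, -0.32 and -0.29 in wild-type and by 0.46, 0.014 and 0.34 in knockout cells, without passing. At least 10 of these 12 were above background on every array. Of 9 macrophage markers Cd14 and Cd68 rose in both genotypes and Fcgr1 fell in wild-type cells, with a summed level of 4.00 to 64.4 in wild-type BMMC, 6.66 to 19.0 in knockout BMMC and 6.18 to 13.4 after coculture. Of 5 erythroid, 3 lymphocyte and 2 neutrophil markers, Klf1 alone passed, in wild-type cells, with its probe well above background on 0 arrays of both groups, so no level or difference is given.

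Genes that surround histone supply were read from lists chosen by function. Of 28 S phase and proliferation genes, 0 passed the test after coculture in either genotype; 1 was at an unadjusted p under 0.05 in wild-type and 3 in knockout cells. Of all genes 26.3% and 29.3% were at that threshold. Their median difference was -0.15 in wild-type and 0.41 in knockout cells. Pcna, the DNA polymerase clamp, differed by 0.43 and 1.104, and Mki67, a proliferation marker, by 0.37 and 0.47. Cdt1, a replication licensing factor, differed by 1.02 (adjusted p = 0.123) and 1.15 (adjusted p = 0.0753).

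Of 24 genes of histone mRNA transcription and 3′ processing, 2 fell in wild-type cells and 1 in knockout cells, near the 6.86% and 6.51% of all genes that fell. Zfp473, a zinc finger protein of the histone pre-mRNA processing complex, fell by 2.21 (adjusted p = 0.0254) and 1.95 (adjusted p = 0.0417) on the log2 scale. Thex1, an exonuclease that acts at the histone stem-loop, fell by 1.77 (adjusted p = 0.0486) in wild-type cells and differed by -1.11 (adjusted p = 0.194) in knockout cells. Slbp, the stem-loop binding protein, differed by -0.72 (adjusted p = 0.189) and -0.12 (adjusted p = 0.862), and Npat, a coactivator of histone genes, by -0.14 and 0.50. Of 17 histone chaperones, Nap1l1 alone passed, at -0.98 (adjusted p = 0.0411) in wild-type cells. In knockout cells 0 of 17 passed and 2 were at an unadjusted p under 0.05, against 29.3% of all genes, and the acetyltransferase Hat1 came nearest, at 1.29 (adjusted p = 0.0725).

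Of 13 histone genes outside the clusters, most of whose mRNAs are polyadenylated, 0 passed in wild-type cells, where 2 were at an unadjusted p under 0.05 against 26.3% of all genes. In knockout cells 2 rose, against 7.78% of all genes. The replacement variant gene H2afz differed by 0.30 (adjusted p = 0.515) in wild-type and rose by 0.95 (adjusted p = 0.0245) in knockout cells. Cenpa, the centromeric H3 variant, differed by 0.88 (adjusted p = 0.0619) and rose by 0.98 (adjusted p = 0.0397). The H3.3 genes H3f3a and H3f3b differed by 0.48 and 0.33 in wild-type and by 0.80 and 0.79 in knockout cells, without passing. H2afx, the variant marked at DNA breaks, differed by 0.11 and -0.09. The lists' calls rested on single arrays: without wild-type BMMC replicate 1 or 2, 0 processing genes and 0 chaperones passed in wild-type cells, and without either of knockout cocultured replicates 1 and 2, 0 variants and 0 processing genes passed in knockout cells.

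The genotypes were then compared within each state. In BMMC 0 of 32 histone genes passed, as did 0 of all genes, a share of 0%. At an unadjusted p under 0.05 there was 1, Hist3h2a, against 1.06% of all genes. Hist3h2a, an H2A gene on chromosome 11, read 5.24, 4.87 and 4.26 in wild-type and 4.16, 4.24, 3.91 and 3.32 in knockout BMMC, all below the wild-type arrays, for a difference of -0.88 (unadjusted p = 0.0209). By the other probe of Hist3h2a, above background on all 14 arrays, the difference was -0.37 and the arrays overlapped. By the probes tested, knockout arrays also lay wholly below the wild-type arrays for Hist1h2aa, Hist1h2af and Hist1h3d. With Hist3h2a this makes 4 of 32, against 3.12% of all genes. Hist1h2aa and Hist1h2af have similar probes and are not separate measurements. By the other probe of Hist1h2af, above background on all 14 arrays, the difference was -0.34 and the arrays overlapped. The H2B genes had a median difference of 0.66, knockout minus wild-type. Hist1h2bc, for instance, differed by 0.72 (SE 0.45, adjusted p = 1.0), with overlapping arrays. Wild-type and knockout BMMC of the same number shared a slide, and within slides 1, 2 and 3 Hist1h2bc was higher in knockout cells by 1.35, 0.74 and 0.62. Hist1h2ba, Hist1h2bk, Hist1h2bm and Hist3h2bb were also higher within all 3 slides, as was Hist1h1d, which makes 6 of 32, against 6.98% of all genes. These H2B genes have similar probes and are not independent measurements. Hist1h1d differed by 0.01, 0.26 and 3.34, and on slide 3 neither array was well above background. Its other probe was lower in knockout cells within all 3 slides, at -2.50, -2.44 and -1.54 against -2.25, -1.85 and -1.29. Lower within all 3 slides were 11 of 32, among them 6 of 9 H2A and 3 of 3 H3 genes, against 22% of all genes. Those H2A genes include Hist1h2aa with Hist1h2af and Hist1h2ai with Hist1h2ak, pairs with similar probes. With the replicate number as a block 0 of 32 passed, and Hist1h2bc differed by 0.90 (adjusted p = 1.0).

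After coculture 0 of 32 passed on all arrays, as did 0% of all genes, and 0 were at an unadjusted p under 0.05, against 3.76% of all genes. None of the 32 had groups that did not overlap, against 1.79% of all genes. The test of whether the coculture difference itself depended on genotype passed for 0 of 32 genes and 0% of all genes. At an unadjusted p under 0.05 there was 1 gene, Hist3h2a, at 1.15, against 0.803% of all genes. Its coculture differences were -0.79 in wild-type and 0.37 in knockout cells. By its other probe they were -0.15 and -0.43, in the opposite order.

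These comparisons of cocultured cells changed with the pair of arrays on slide 4. Slides 2 and 4 each held 1 wild-type and 1 knockout cocultured array. For Hist1h2bc the knockout array was 1.45 above the wild-type array on slide 2 and 1.62 below it on slide 4, that is, -1.62. Hist1h2bm gave 1.41 and -1.44, and Hist2h3c1 0.77 and -0.76. The sign was opposite on the 2 slides for 25 of the 31 genes measured on all 4 arrays: for 9 of 9 H2B, 5 of 5 H1, 3 of 3 H3, 4 of 6 H4 and 4 of 8 H2A genes. Over all genes the sign was opposite for 80.3%, a share close to that of the histone genes. With 1 array of each label on a slide, these differences have no replicate check.

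Without that pair, with 3 wild-type and 2 knockout cocultured arrays left and 31 histone genes tested, 10 rose after coculture in wild-type cells, where 9.59% of all genes rose. In knockout cells 15 rose, where 19.2% of all genes did. Hist1h2bp is in both counts and Hist1h3a in the knockout count, and both were tested because of the cocultured arrays. The 6 H2B genes called with all arrays passed in both genotypes, with Hist1h2bc at 2.23 and 2.59. The class median was 2.23 in wild-type and 2.26 in knockout cells, and again counts Hist1h2bp, Hist2h2bb and the H2B genes with similar probes. Hist2h2aa1 now passed in both genotypes, at 1.48 and 1.004, and Hist1h2ae in both, at 1.40 and 2.41. Between the genotypes after coculture, 4 of 31 genes were higher in knockout cells, where 16.4% of all genes were. The pair was chosen because it lay against the genotype labels, so leaving it out favours calls between genotypes, and these values are a description. They were Hist1h2ae at 1.21 (SE 0.35, adjusted p = 0.029), Hist1h2bc at 1.08 (SE 0.35, adjusted p = 0.046), Hist1h3d at 0.61 (adjusted p = 0.047) and Hist2h3c1 at 0.63 (adjusted p = 0.031). The coculture difference of Hist1h3d and Hist2h3c1 was then also larger in knockout cells, by 0.91 (adjusted p = 0.045) and 0.85 (adjusted p = 0.044), which are 2 of 31 against 13.3% of all genes. Of the S phase genes, 18 of 28 were higher in knockout cocultured cells without the pair, with a median of 1.21, against 0 of 28 with all arrays. Their part in the histone values was not tested.

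Most histone genes read lower on slide 4. The scan names of the slide 4 arrays carry a later date than those of all other arrays, so slide and date cannot be told apart. In a fit with 1 term for slide 4, added after the data were seen, 6 of 32 histone genes were lower there and 0 higher, against 0.81% of all genes lower. The median was -0.77 over the histone genes and -0.12 over all genes, and 30 of 32 were below 0, against 60.6% of all genes. By class the median was -1.04 for H4, -0.79 for H2A, -0.70 for H2B, -0.45 for H1 and 0.02 for H3. Hist1h4f was lower by -1.31 (SE 0.21, adjusted p = 0.021), followed by Hist1h4d at -1.19, Hist2h4 at -1.10 and Hist4h4 at -0.98. The probes of Hist1h4f, Hist1h4d and Hist2h4 have similar sequence, so these are not separate measurements in the count or in the H4 median. The H2A and H2B medians also count genes with similar probes. As an example, Hist1h4f read 1.74 on the slide 4 array of knockout BMMC against 2.85 to 3.08 on the others. It read 2.28 on the slide 4 array of knockout cocultured cells against 3.39 and 3.79. For Hist1h4a, Hist1h4d, Hist1h4f, Hist2h4 and Hist4h4 the 3 arrays of slide 4 were the lowest of all 14, which was not so for Hist1h4i. The others past the test were Hist1h2ab, at -1.98, and Hist1h1a, at -1.21. Hist1h3d and Hist2h3c1 differed by 0.04 and 0.02.

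**Figure D4:**
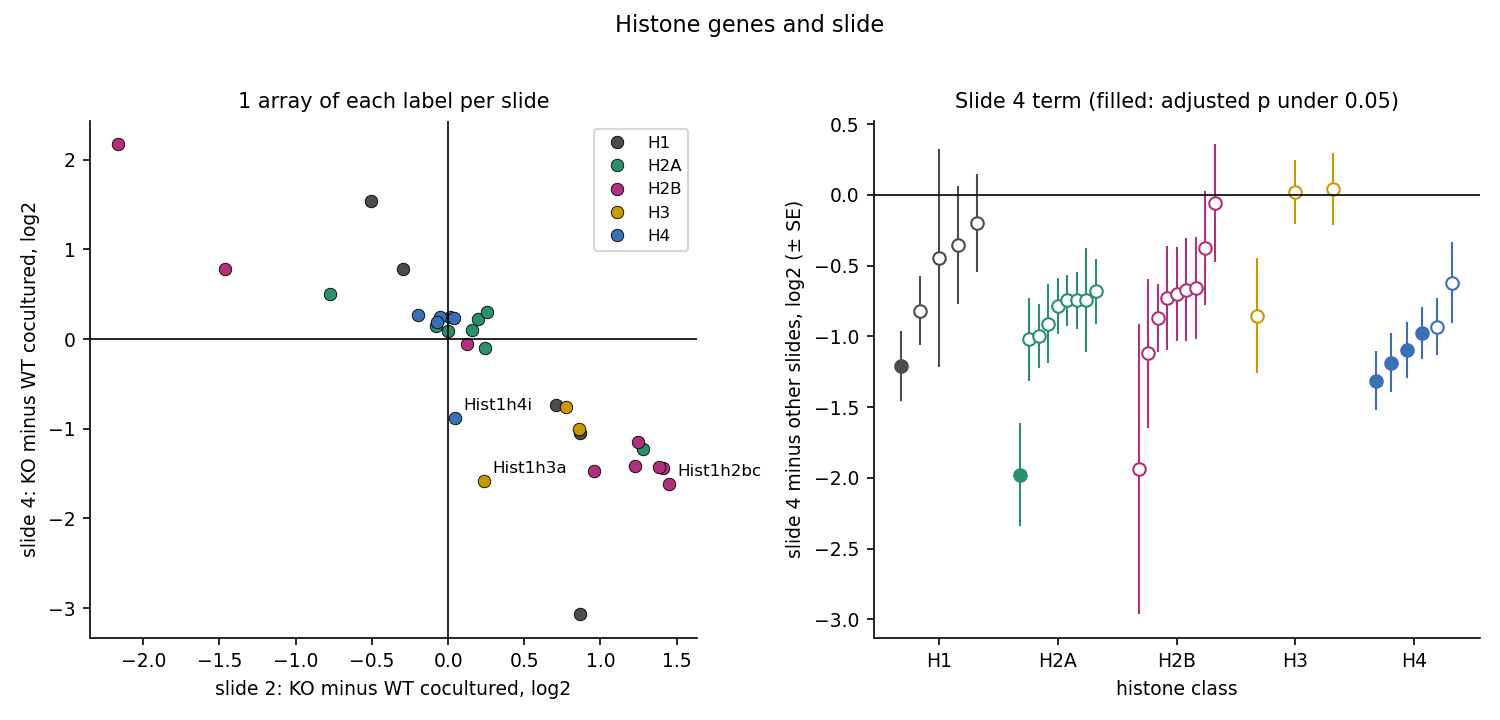
Left, knockout minus wild-type cocultured level (log2) of 31 histone genes on slide 2 (x axis) and slide 4 (y axis), 1 array of each label per slide; 25 genes have opposite signs. Right, the slide 4 term of the 32 genes by class with its standard error (log2), filled where it passed the test. In all 6 genes passed, 4 of them H4, and among these Hist1h4d, Hist1h4f and Hist2h4 have similar probes.

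The starts of the genes were compared for short motifs. RefSeq (GRCm38.p6) gave promoters of 30 of the 36 genes, 250 bases before to 50 after each start. Both strands were searched. The octamer ATTTGCAT, an element known from H2B promoters, was in 5 of 7 H2B and 6 of 10 H2A genes, in 0 of 13 others, and in 1.74% of all 32851 promoters. The letters CCAAT were in 27 of 30, against 37.4% of all promoters, and TATAAA in 20 of 30, against 13.6%. The letters AAACACA, known from H1 promoters, were in 5 of 6 H1 genes, against 7.18%. The 120 bases before the start are shown for Hist1h1c, Hist1h2bk and Hist1h2bm, with capitals for these motifs on either strand (plus strand, GRCm38.p6). They were picked from the genes that rose and had promoters, and Hist1h2ba, Hist1h2bp and Hist1h4i are not shown.
Hist1h1c, chr13:23738687-23738806: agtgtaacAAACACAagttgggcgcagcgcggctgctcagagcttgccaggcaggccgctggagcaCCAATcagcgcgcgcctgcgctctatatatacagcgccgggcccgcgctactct
Hist1h2bk, chr13:22035701-22035820: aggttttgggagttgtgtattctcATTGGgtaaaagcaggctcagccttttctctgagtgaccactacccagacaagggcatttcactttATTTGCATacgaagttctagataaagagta
Hist1h2bm, chr13:21721924-21722043: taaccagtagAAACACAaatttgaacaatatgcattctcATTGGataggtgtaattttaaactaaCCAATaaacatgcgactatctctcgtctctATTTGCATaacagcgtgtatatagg
Hist1h1c carried AAACACA and CCAAT but no octamer, and Hist1h2bk and Hist1h2bm carried the octamer close to the start. Hist1h1c, Hist1h2bp and Hist1h4i rose in wild-type cells without the octamer in this window. The H2A genes Hist1h2aa, Hist1h2ab, Hist1h2ae, Hist2h2ac and Hist3h2a had it and did not pass in wild-type cells. In knockout cells Hist1h2ae of these did. The H2B gene Hist2h2bb also had it and passed in neither genotype. The windows of Hist1h2aa and Hist1h2ba overlap and hold the same octamer, which thus counts for both classes. These matches describe letters and not binding.

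The probes were also searched for marks of the transcript end. The stem-loop letters of histone mRNA, whole or at least 11 of 16 at a probe end, were in the probes of Hist1h3a, Hist1h2ab and Hist1h2ae and in no other of the 41174 probes. The polyadenylation signal AATAAA was in the probes of Hist1h2bp and Hist2h2bb, and in 4.78% of all probes. Of the genes with stem-loop letters, Hist1h2ae passed in knockout cells, and Hist1h3a and Hist1h2ab passed in neither genotype. Of those with AATAAA, Hist1h2bp passed in both and Hist2h2bb in neither.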

How the data were processed

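Spot intensities were read from the scanner files that the authors deposited, made with Agilent Feature Extraction 9.5.1.1 per the submitters' processing notes; the files' 0 or 1 spot flags, of another kind than intensity, came from the same software. The log2 processed intensity was taken relative to each array's 75th percentile, spots marked as outliers were left out, and spots of a probe were averaged. Each gene was represented by its probe with the highest mean. The 4 groups were fitted together with limma 3.58.1 in R 4.3.3, with Benjamini-Hochberg adjustment over all genes tested. The number of arrays limits the precision. Scripts were tested on simulated data.

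The authors' deposited table of normalized intensities, 25193 probes with 1 constant subtracted per array, served as an alternative, with values under 1 set to 1. Its 14 other per-sample columns were not used. Other alternatives were the scaling, background correction, filter, probe rule, slide or replicate number as a block, array weights and leaving out arrays. Wild-type and knockout BMMC with the same replicate number lay on the same slide and deviated together, with correlations of 0.197, 0.499 and 0.488.

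The histone genes and the lists of related genes and markers were chosen with earlier results of these data known. By rule, the text names histone genes past the test in any comparison, the brightest of each class, those with the largest and smallest coculture differences, the leading genes of each list and Pla2g3; other members named were chosen after their values were seen. Where 1 group alone was above background, a fold is a lower bound against the dimmest measurable signal.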

Additional observations from a re-analysis of the deposited data

Results flagged for a closer look

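In groups of 4 arrays, the highest or lowest array was set apart from the others by Dixon's 95% limit in 9 of 64 cases, and chance alone gives about 1 in 20. Of these 9 cases, 7 were on slide 4. In knockout BMMC replicate 4, which is of slide 4, Hist1h2ba was at -0.58 with the next array at 0.12, Hist2h4 at 0.091 with the next at 1.05, Hist3h2bb at 0.45 with the next at 1.34, and Hist4h4 at -1.89 with the next at -0.98. In wild-type cocultured replicate 3, also of slide 4, Hist4h4 was at -1.57 with the next at -0.50, and Hist2h2aa1 at -0.86 with the next at 0.62. Hist1h1d was high there, at -0.22 with the next at -1.63. Away from slide 4, Hist1h2bp was high in knockout BMMC replicate 3, at -4.99 with the next at -6.48 and both below background, and Hist1h3a in wild-type cocultured replicate 4, at -2.53 with the next at -2.73.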

How the results depend on the processing

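In wild-type cells 8 of 32 histone genes were higher after coculture. It was 6 to 12 under the 14 alternatives other than leaving out a single array, and 8 to 10 when single arrays were left out. Under those 14 alternatives 856 to 5032 of all genes were called in either direction, against 2068 of 16058 here. The knockout count, 11, was 7 with median scaling, 5 with normexp, 1 with the authors' values and 7 with no filter on dim probes. It was 17 with array weights and 2 to 12 when single arrays were left out. Of all genes, 2295 were called in either direction here, 1400 with median scaling, 896 with normexp and 638 with the authors' values. No filter gave 1361 of 28063 and array weights 7367 of 16058. With a replicate block the knockout count was 2, and 796 of all genes were called. The replicate numbers did not pair cocultured with BMMC samples, and in BMMC, where they paired the genotypes, the block left 0 calls. The comparison of genotypes after coculture gave 0 calls on all arrays, 7 with array weights and 4 without the cocultured pair of slide 4. It gave 5 without all of slide 4, a setting added after the data were seen. Of all genes these 3 settings called 7334 of 16058, 4020 of 15552 and 4224 of 15412. The interaction gave 0 on all arrays, 3 with array weights and 2 without the pair. With array weights and without the pair, 3833 and 2067 of all genes passed it. Median scaling moved the median of all genes from -0.06 to -0.20 in wild-type cells, and from 0.05 to 0.31 between genotypes after coculture. The H2B median stayed above 0 after coculture under every scaling tried, the authors' values included. That median also counts Hist1h2bp, Hist2h2bb and the H2B genes with similar probes.

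The list counts moved as well, and the cause was not tested. Variants outside the clusters, 0 in wild-type cells, gave 3 with the authors' values, 1 with slide as a fixed or random block, 2 with array weights, 1 without the pair or without slide 4, and 0 to 1 without single arrays. In knockout cells they gave 2, and 0 with median scaling, quantile normalisation, normexp, the authors' values, no filter or the replicate block, 4 with slide as a random block, without the pair or without slide 4, 5 with array weights, and 0 to 3 without single arrays. Processing genes, 2 in wild-type cells, gave 1 with median scaling, normexp, no filter, the mean over probes, a random slide block or the replicate block, 0 with the authors' values or a fixed slide block, 6 with array weights or without slide 4, 5 without the pair, and 0 to 2 without single arrays. In knockout cells they gave 1, and 0 with no filter, a fixed slide block or the replicate block, 2 with the filter by group or a random slide block, 7 with array weights or without the pair, 5 without slide 4, and 0 to 3 without single arrays. Chaperones, 1 in wild-type cells, gave 0 with median scaling, normexp, the authors' values, no filter or the replicate block, 2 with array weights, and 0 to 1 without single arrays. In knockout cells they gave 0, and 6 with array weights, 3 without the pair or without slide 4, and 0 to 2 without single arrays. S phase genes, 0 in wild-type cells, gave 1 with a fixed slide block, 6 with array weights, 4 without the pair or slide 4, and 0 to 1 without single arrays. In knockout cells they gave 0, and 10 with array weights, without the pair or without slide 4, and 0 to 6 without single arrays. For the genotype comparisons the calls were summed over BMMC, cocultured cells and the interaction, so a gene can count more than once. All sums were 0 on all arrays. Array weights, removal of the pair and removal of slide 4 gave 8, 4 and 3 calls for variants and 24, 16 and 15 for processing genes. They gave 12, 6 and 6 calls for chaperones and 38, 25 and 23 for S phase genes. The same settings called many of all genes, with the counts given above. Dim probes limit Hist1h2bp, Hist2h2bb and Hist1h3a, which were above background on 4, 5 and 9 arrays.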
